A study of Mus musculus with 12 samples.

Results

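Transcripts of AMP-activated protein kinase (AMPK) and of its main upstream kinase were examined in mouse triceps brachii, a forelimb muscle, with and without wheel running and with normal or reduced myostatin. The 8 genes were taken by name from a table of 10187 genes. They are the catalytic subunits Prkaa1 and Prkaa2, the scaffold subunits Prkab1 and Prkab2, the nucleotide-binding subunits Prkag1, Prkag2 and Prkag3, and Stk11, which encodes the kinase LKB1. All 8 genes were in the table, and 7 had a mean normalized read count of at least 10 over the mice and entered the fit across 7247 genes, whereas Prkag2 did not.

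AMPK is a complex of 1 alpha, 1 beta and 1 gamma subunit that is switched on when cellular energy falls. AMP and ADP bind the gamma subunit, the beta subunit holds the complex together and can bind glycogen, and LKB1 phosphorylates the activation loop of the alpha subunit. In skeletal muscle the kinase is turned on by contraction and is known for promoting glucose uptake and fatty acid oxidation. The gamma3 subunit encoded by Prkag3 is best known from fast glycolytic skeletal muscle. Only messenger RNA was measured here, so neither the protein nor its phosphorylation is covered.

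The 12 mice were male C57/BL6, in 4 groups of 3 that crossed genotype with activity, namely inactive wild-type (IW), active wild-type (AW), inactive myostatin-reduced (IM) and active myostatin-reduced (AM). Every mouse, wild-type mice included, ate chow with 0.025% tamoxifen for 6 weeks in all between 4 and 6 months of age, and myostatin was depleted only where Mstn was floxed. Active mice of both genotypes had been matched by how they ran. The promoter that drives the Cre recombinase, and whether wild-type mice carried it, were not given in the sources used here. From 6 months of age active mice lived for 12 weeks in individual cages with a running wheel while inactive mice did not, so that running and single housing cannot be told apart. Each library was made from the triceps of 1 mouse, and in such bulk RNA fewer cells of a type and less RNA per cell cannot be told apart.

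Normalized read counts of Mstn, the targeted gene, were 79.7 to 138.1 in wild-type and 8.7 to 21.6 in myostatin-reduced mice, so every library matched its genotype label. The estimated depth was 9023709 to 12184255 reads per mouse. The 6 skeletal muscle markers were all present, and no listed marker gene was at 0 in any mouse. The summed fast-fibre genes (12 genes) were 205687 to 241957 normalized reads among IW, 172802 to 214021 among AW, 251865 to 263896 among IM and 178924 to 231521 among AM mice. The summed slow-fibre genes (11 genes) varied far more among mice of a group, from 94.3 to 1370 among IW, 151 to 1831 among AW, 78.3 to 111.7 among IM and 117 to 1343 among AM mice. All 6 endothelial markers had a positive log2 change with activity and 5 were called in limma (7.99% of all genes were called higher), with sums of 248 to 360 in inactive and 283 to 543 in active mice. Sums of the adipocyte list (4 of 5 genes in the table) were 84.8 to 126 in inactive and 115 to 190 in active mice. That difference was of Fabp4 (75.8 to 106.6 in inactive and 108.9 to 177 in active mice), since the group means of Adipoq, Plin1 and Cidec were lower in active than inactive mice of the same genotype. The sums of the macrophage, fibroblast and Schwann cell lists overlapped between all groups.

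To compare levels between genes, normalized read counts were divided by the length of annotated exons and are then given per kilobase. In IW mice the order was Prkab2 (93.7 ± 11.2 per kilobase, SD, n = 3 mice), Prkag3 (68.3 ± 10.3), Prkaa2 (66.4 ± 6.95), Prkag1 (29.8 ± 1.42), Stk11 (24.5 ± 2.22), Prkaa1 (4.77 ± 0.775), Prkab1 (2.71 ± 0.415) and Prkag2 (1.07 ± 0.055). Prkag3 and Prkaa2 lay within the spread of each other, and the other neighbours did not overlap between IW mice. This order depends on the exon length used. With the longest transcript, Prkag3 (90.6 per kilobase) was well above Prkaa2 (66.4) and overlapped Prkab2 between IW mice, the mean of Stk11 (30.6) passed that of Prkag1 (29.96), and Prkaa1 (3.9 to 5.4) overlapped Prkab1 (3.3 to 4.3). Messages of alpha2, beta2 and gamma3 were thus the most abundant of their families in this muscle, and the alpha1 and beta1 messages were minor ones.

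Within a family, Prkaa2 made up 91.0% to 94.2% of the alpha messages per exon length in the 12 mice, and Prkab2 94.6% to 98.0% of the beta messages. The gamma family was more mixed, with 56.3% to 77.1% Prkag3, 21.9% to 41.6% Prkag1 and 0.7% to 2.1% Prkag2. The Prkag3 share was 68.6% ± 4.22 among IW, 61.5% ± 5.90 among AW, 74.97% ± 2.23 among IM and 62.4% ± 5.29 among AM mice (SD, n = 3 each). All 3 IM mice (72.7% to 77.1%) were above all 6 active mice (56.3% to 68.3%) and overlapped IW mice (64.4% to 72.9%). The shares are a description with no test, because they rest on which exons are annotated. Leaving out the division by length gave a mean Prkag3 share of 77.3% in place of 66.9%.

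**Figure D1:**
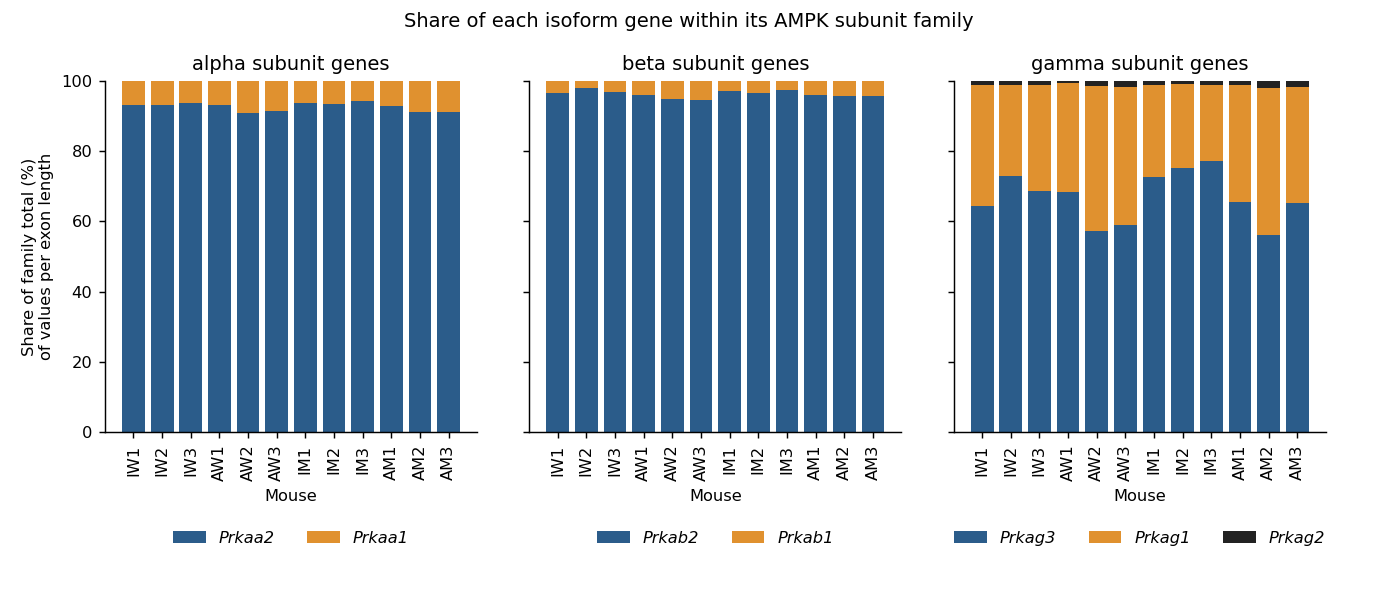
Share of each isoform gene within the alpha, beta and gamma families, in percent of normalized reads per exon length, with 1 stacked bar for each mouse of the IW, AW, IM and AM groups. Prkaa2 and Prkab2 filled over 90% of their families in every mouse, whereas Prkag3 ranged from 56.3% to 77.1% and was higher in the 3 IM mice than in all 6 active mice.

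The first comparison asked which of these genes differed between active and inactive mice, averaged over genotypes. The threshold for a call was 0.05 on the limma p-value, adjusted over all genes tested. Of the 7 genes tested, 3 were called. Prkab2 and Prkag3 were under-expressed in active mice and Prkag1 was over-expressed, while 14.5% of all genes tested were called (7.99% higher and 6.51% lower). The second comparison, of myostatin-reduced mice relative to wild-type, called 1 member, Prkab2, which was over-expressed in myostatin-reduced mice. The background there was 5.78% of genes (3.57% higher and 2.21% lower). With libraries rescaled to equal sums, 1401 of 1545 activity calls were higher in place of 579 of 1051, and 177 of 619 genotype calls in place of 259 of 419, and the same members were called in the same directions. These p-values measure the spread between mice of these groups, and with so few members the counts are read only beside the background.

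**Figure D2:**
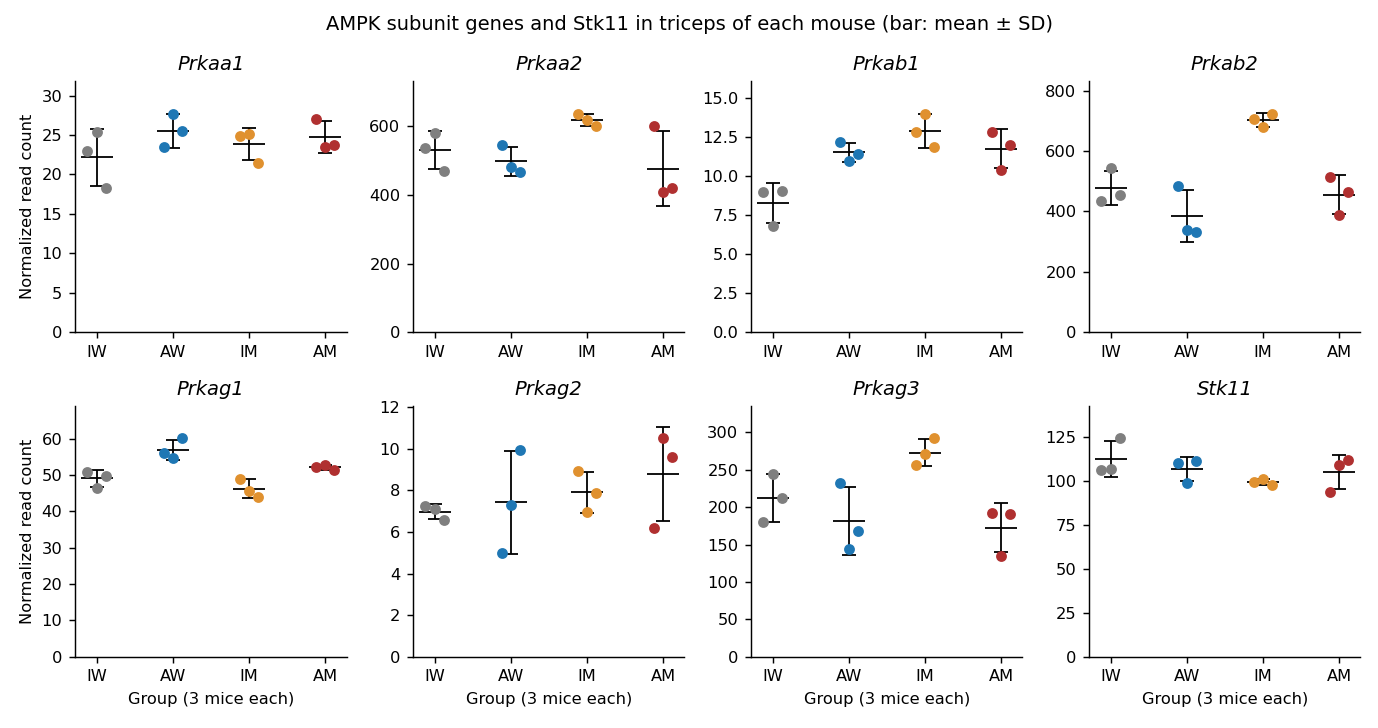
Normalized read count of each gene (vertical axis, from 0) in the 3 mice of the IW, AW, IM and AM groups, as points with a bar for the mean and whiskers for the SD. Prkab2 and Prkag3 were highest in the 3 IM mice, Prkag1 was higher in all 6 active mice, and Prkab1 was lowest in the 3 IW mice.

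Promoter sequence is shown for Prkab2 and Prkag1, a scaffold and a gamma gene that changed in opposite directions with activity. The windows run from 250 to 31 bases before the RefSeq transcript start on the gene's strand (build GRCm38.p6, which is not the build of the read counts), at chr3:97657962-97658181 on the plus strand and chr15:98831539-98831758 on the minus strand. Capitals mark the GC box GGGCGG on either strand, and each motif named here was searched on both strands.
Prkab2: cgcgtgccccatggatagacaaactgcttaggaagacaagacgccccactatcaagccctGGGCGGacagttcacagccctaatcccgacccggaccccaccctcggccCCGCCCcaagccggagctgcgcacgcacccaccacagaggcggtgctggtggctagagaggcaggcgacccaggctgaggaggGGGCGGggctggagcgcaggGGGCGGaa
Prkag1: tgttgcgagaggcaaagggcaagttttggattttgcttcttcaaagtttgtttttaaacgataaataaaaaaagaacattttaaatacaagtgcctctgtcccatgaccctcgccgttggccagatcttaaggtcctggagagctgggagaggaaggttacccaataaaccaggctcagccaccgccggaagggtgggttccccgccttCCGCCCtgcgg
The Prkab2 window had 68.6% G and C and 4 GC boxes, and the Prkag1 window 49.5% and 1 GC box. A GC box on either strand was present in 28.5% of 32851 RefSeq windows of the same length. Of the other members, Prkaa1 had 3 GC boxes, Prkaa2 had 1 and 1 of the 3 Prkag2 windows had 2, while Prkab1, Prkag3 and Stk11 had none. The E-box CANNTG, bound by myogenic factors among others and found in 62.1% of windows, occurred once each in the Prkag1 and Prkag3 windows, 2 times in that of Stk11 and 1 to 3 times in the 3 Prkag2 windows, and was not found in those of Prkaa1, Prkaa2, Prkab1 and Prkab2. The TATA box TATAAA (9.95% of windows) and the MEF2 motif (0.42%) were found in no member's window, and the oestrogen-related receptor element TNAAGGTCA (1.03%) only in 1 of the 3 Prkag2 windows. Such matches are descriptions of letters and not of binding.

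Among the catalytic subunits, Prkaa2 (chromosome 4, 104702479 to 104782495, minus strand, build NCBIM37, mm9) encodes alpha2, the form best known from skeletal muscle. Normalized reads were 538, 580.2 and 470.4 among IW, 546, 480.4 and 467 among AW, 636, 617 and 601 among IM and 602, 408 and 420.2 among AM mice. The IM mice were tightly grouped at the top, and AM mouse 1 stood with them, apart from the other two AM mice. The log2 change with activity was -0.24 (SE 0.092, 95% interval -0.44 to -0.04, limma adjusted p = 0.0992), which did not pass the threshold. Without AM mouse 1 it was -0.33 and passed (limma adjusted p = 0.00613), and with sample weights it was -0.29 and passed (adjusted p = 0.0171). With libraries rescaled to equal sums it was -0.13 and did not pass (adjusted p = 0.306). Between AM and IM mice the log2 change was -0.40 (SE 0.131, limma adjusted p = 0.0792), which passed with the replicate number as a block (adjusted p = 0.0468) and with sample weights (-0.44, adjusted p = 0.0252). With equal sums the AM-IM change was -0.27 and did not pass (adjusted p = 0.175). With genotype the log2 change was 0.07 (95% interval -0.13 to 0.27, limma adjusted p = 0.694).

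Prkaa1 (chromosome 15, 5093861 to 5131899, plus strand) encodes alpha1, the more widely expressed catalytic form. It had 18.3 to 25.4 normalized reads among IW, 23.5 to 27.7 among AW, 21.5 to 25.1 among IM and 23.5 to 27.1 among AM mice, so that all groups overlapped. Its log2 change was 0.13 with activity (95% interval -0.05 to 0.31, limma adjusted p = 0.309) and 0.03 with genotype (-0.15 to 0.21, adjusted p = 0.858). Rescaled to equal sums, the activity change was 0.23 (95% interval 0.04 to 0.42, adjusted p = 0.0764) and still did not pass. The alpha family as a whole summed to 71.2 ± 7.72 normalized reads per kilobase among IW, 67.9 ± 4.99 among AW, 82.7 ± 2.60 among IM and 65.2 ± 14.1 among AM mice.

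Prkab2 (chromosome 3, 97462116 to 97477735, plus strand), the gene of the muscle scaffold subunit beta2, was the member that passed the test in both comparisons. IW mice had 435, 542 and 454 normalized reads, AW mice 484, 337 and 333, IM mice 705, 678 and 723, and AM mice 516, 389 and 463. The 3 IM mice were above all other 9 mice, a pattern that 5.05% of all genes tested showed and that Prkag3 shared. The mean was 19.4% lower in active than inactive mice among wild-type mice and 35.1% lower among myostatin-reduced mice. The log2 change with activity was -0.48 (SE 0.10, 95% interval -0.70 to -0.26, limma adjusted p = 0.00929). That call held in all 12 fits with any 1 mouse removed (-0.57 to -0.42).

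Relative to wild-type mice, Prkab2 was 47.1% higher in inactive and 18.5% higher in active myostatin-reduced mice. Its genotype effect on the log2 scale was 0.41 (SE 0.10, 95% interval 0.19 to 0.63, limma adjusted p = 0.0346). This call was less stable, since it was kept in 3 of the 12 fits with 1 mouse removed, namely those without IW mouse 2, AW mouse 1 or AM mouse 2. Without any of the other 9 mice the change was 0.36 to 0.42 with an adjusted p of 0.0605 to 0.0917. In the single contrasts, Prkab2 was called between AM and IM mice (-0.63, SE 0.142, limma adjusted p = 0.0216, lost at 0.0595 to 0.109 without IM mouse 1, 2 or 3 or AM mouse 2). It was not called between IM and IW mice (0.56, adjusted p = 0.0604), AW and IW mice (-0.33, adjusted p = 0.305) or AM and AW mice (0.26, adjusted p = 0.503). Between IM and IW mice Prkab2 passed in 3 of the 12 fits with 1 mouse removed. Between AW and IW mice it passed in 1 of the 12, without AW mouse 1 (-0.50, limma adjusted p = 0.0454), and with sample weights (-0.45, adjusted p = 0.0413).

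Prkab1 (chromosome 5, 116463595 to 116474517, minus strand) encodes beta1, the scaffold form best known from liver and other tissues. It was a low message, with 74 to 154 estimated reads per mouse, so that counting alone gives a relative error of up to 11.6%. Normalized reads were 8.99, 6.83 and 9.08 among IW, 12.2, 11.0 and 11.4 among AW, 12.9, 14.0 and 11.9 among IM and 12.9, 10.4 and 12.0 among AM mice. The 3 IW mice lay below all other 9 mice, which was so in 0.704% of all genes tested. Prkab1 was called between IM and IW mice (0.59, SE 0.123, limma adjusted p = 0.0345), where the background was 2.51%, and no other member was. The call was lost without any of the 3 IW mice, any of the 3 IM mice or AW mouse 3 (0.47 to 0.65, adjusted p = 0.052 to 0.107).

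In the comparison averaged over activity, the Prkab1 genotype effect on the log2 scale was 0.30 (SE 0.087, limma adjusted p = 0.0622), and it passed without AM mouse 2 (0.0453), without trend (0.0445) and with sample weights (0.0323). The Prkab1 activity change was 0.16 averaged over genotypes (adjusted p = 0.243), and 0.26 with equal sums (adjusted p = 0.0577). It was 0.44 between AW and IW mice and -0.13 between AM and IM mice, neither called. The AW-IW change passed with sample weights (limma adjusted p = 0.0462) and in 0 of 12 fits with 1 mouse removed. The beta family total followed Prkab2, at 96.4 ± 10.8 normalized reads per kilobase among IW, 79.3 ± 17.0 among AW, 142.0 ± 4.13 among IM and 93.3 ± 12.9 among AM mice. All 3 IM totals (137.6 to 145.8) were above the highest total of the other groups, which was 108.6.

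Prkag3 (chromosome 1, 74786073 to 74795795, minus strand) had 180.2, 244 and 212 normalized reads among IW, 232, 143 and 169 among AW, 257, 271 and 292 among IM and 192, 135 and 191 among AM mice. As for Prkab2, the 3 IM mice were above all other 9 mice. AW and AM mice overlapped, and AW mouse 1 lay within the IW range. The mean was 14.4% lower with activity in wild-type and 36.8% lower in myostatin-reduced mice. The uncalled wild-type value, -0.24 on the log2 scale, turned to 0.05 with a score of fast-fibre genes as a covariate. It depended on single mice, at -0.43 to -0.09 over the 12 fits with 1 mouse removed. The log2 change with activity was -0.46 (SE 0.124, 95% interval -0.73 to -0.19, limma adjusted p = 0.0285).

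The Prkag3 call with activity was kept in 5 of the 12 fits with 1 mouse removed. It was lost without IW mouse 2 or 3, AW mouse 2 or 3, IM mouse 2 or 3, or AM mouse 2 (-0.46 to -0.37, adjusted p = 0.0537 to 0.0763). Between AM and IM mice Prkag3 was under-expressed (-0.68, SE 0.175, limma adjusted p = 0.0357), and this was lost without IM mouse 1, 2 or 3 or AM mouse 2 (adjusted p = 0.0824 to 0.163). With genotype its log2 change was 0.16 (95% interval -0.11 to 0.42, limma adjusted p = 0.50), from 28.7% higher in inactive to 4.88% lower in active mice.

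Prkag1 (chromosome 15, 98643229 to 98661939, minus strand), the gene of the widely expressed gamma1 subunit, moved the other way. It had 50.95, 46.5 and 49.8 normalized reads among IW, 56.0, 54.7 and 60.1 among AW, 49.0, 45.7 and 44.0 among IM and 52.2, 52.8 and 51.4 among AM mice. All 6 active mice were above all 6 inactive mice, as in 3.09% of all genes tested. The log2 change with activity was 0.19 (SE 0.047, 95% interval 0.09 to 0.29, limma adjusted p = 0.0193), from means 15.95% higher in wild-type and 12.7% higher in myostatin-reduced mice. The call was lost without IW mouse 2, AW mouse 3 or IM mouse 3 (0.17 each, adjusted p = 0.0518 to 0.0601). With genotype Prkag1 had a log2 change of -0.10 (95% interval -0.21 to -0.002, adjusted p = 0.213).

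Prkag2 (chromosome 5, 24368562 to 24606460, minus strand), which encodes gamma2, best known from the heart, had 4.98 to 10.5 normalized reads, or 58 to 136 estimated reads, in the 12 mice. Every group overlapped every other. An exact permutation test of the mice found a log2 change of 0.07 with activity (two-sided p = 0.67) and 0.19 with genotype (two-sided p = 0.265), where the smallest p possible over 400 arrangements was 0.005. The gamma family total was 99.2 ± 8.97 normalized reads per kilobase among IW, 94.2 ± 14.6 among AW, 117.3 ± 4.20 among IM and 88.6 ± 10.1 among AM mice.

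Stk11 (chromosome 10, 79578548 to 79593427, plus strand), the upstream kinase gene, had 106.1, 106.6 and 124 normalized reads among IW, 110.1, 98.9 and 111.4 among AW, 99.4, 101.1 and 97.4 among IM and 93.8, 108.6 and 111.8 among AM mice. The mean of IM mice was 11.5% lower than that of IW mice, which was not called (log2 change -0.17, limma adjusted p = 0.322). The log2 change was 0.001 with activity (95% interval -0.13 to 0.13, limma adjusted p = 0.991) and -0.10 with genotype (-0.23 to 0.03, adjusted p = 0.348). With libraries rescaled to equal sums the activity change was 0.11 (95% interval -0.02 to 0.24, adjusted p = 0.211). The 3' end of Stk11 overlaps Dos on the other strand, and Prkaa1, Prkab1, Prkab2 and Prkag1 likewise overlap other annotated genes at an end. Whether the counting used strand was not given in the sources used here, so reads of such overlaps cannot be told apart.

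**Figure D3:**
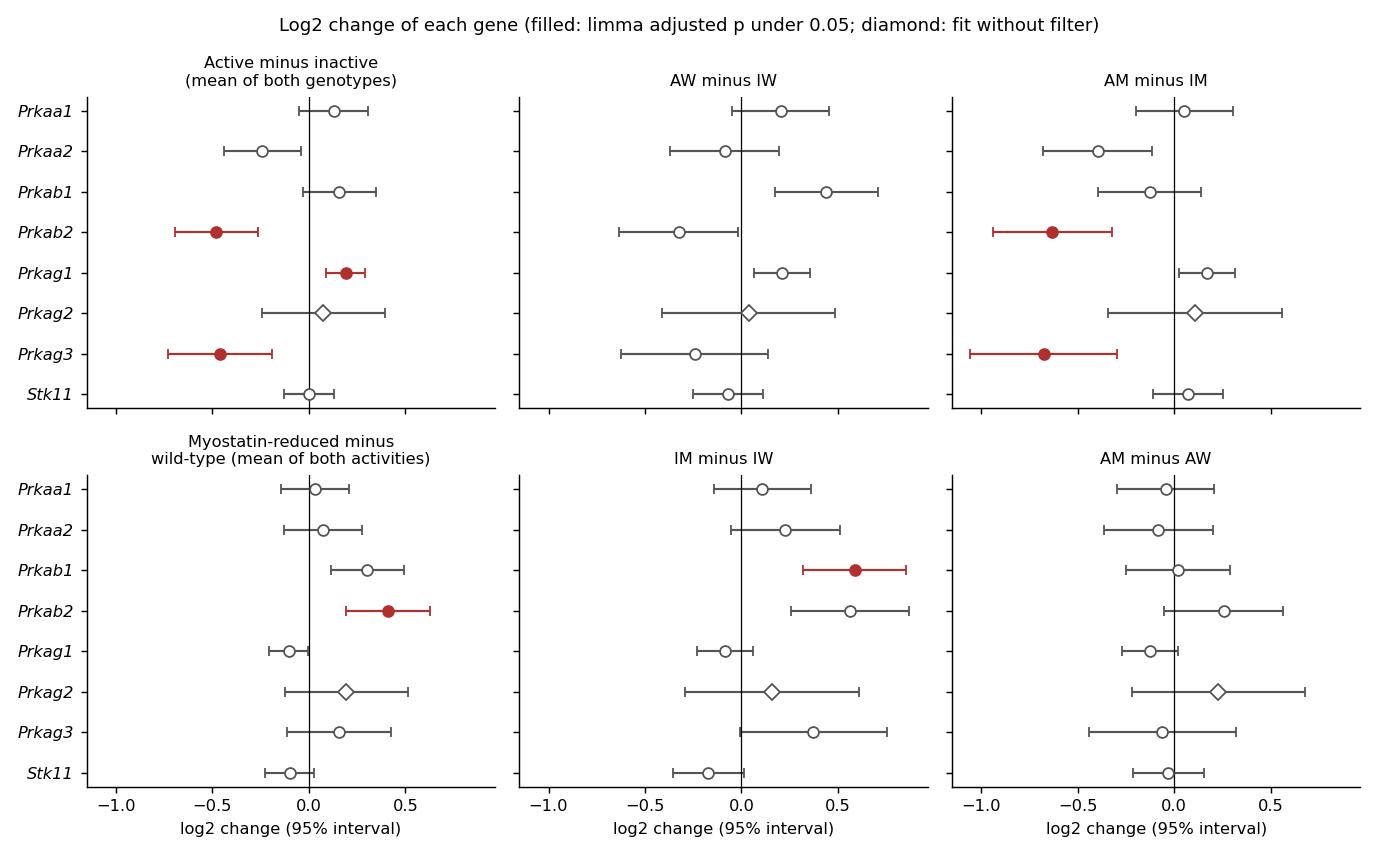
Log2 change (horizontal axis) with its 95% interval for each gene in the contrasts averaged over the other factor (left) and in each single contrast between groups. Filled red points passed a limma adjusted p under 0.05, and the diamond for Prkag2 comes from a fit without the filter on low values; Prkab2 and Prkag3 lay left of 0 in all 3 activity contrasts and passed in 2 of them.

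The activity-by-genotype interaction asks whether the activity change differed between genotypes. No member passed that test, and neither did any other gene (0% of 7247 in limma, with 297 genes at an unadjusted p under 0.05, Prkab1 alone of the members). The largest difference of a member was that of Prkab1, at -0.57 on the log2 scale (95% interval -0.94 to -0.19 before adjustment, limma adjusted p = 0.890). For Prkab2 the difference was -0.31 (95% interval -0.74 to 0.13) and for Prkag3 -0.43 (-0.97 to 0.10). Between AM and IM mice 2 members were called against a background of 7.84%, and between AW and IW mice none was against 0.0276%. In the latter contrast 3 of 7 members had an unadjusted limma p under 0.05, beside 1067 of 7247 genes. The background of 0.0276% rests on single mice, since the 2 genes called became 198 without AW mouse 1. Between AM and AW mice none was called against 0.207%, and none had an unadjusted p under 0.05, beside 894 of 7247 genes. These counts therefore do not show that the activity change of Prkab2 or Prkag3 differed between the genotypes.

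Fibre-type markers moved with the same groups. The summed fast-fibre genes were highest in the 3 IM mice and lowest among AW mice 2 and 3 and AM mouse 2, the same mice that had the 3 lowest Prkab2 counts. The list did not move as one, since 4 of its 12 genes were called lower with activity (beside 6.51% of all genes) and Myh1, a fast myosin heavy chain gene, was called higher (1.51, limma adjusted p = 0.0019, beside 7.99%). Myh1 was lowest in the 3 IM mice (1727 to 2929 normalized reads, beside 3920 to 14698 in the others). Prkag3 was lowest among AM mouse 2 and AW mice 2 and 3 as well. The fast-fibre score, the mean log2 deviation over the 12 genes, did not follow the sums in every mouse, and was highest in AM mouse 3 (0.163, beside 0.062 to 0.103 among IM mice). When this score was added to the fit as a covariate, a setting chosen after the data were seen, the Prkab2 log2 change with activity was -0.31 and still passed (limma adjusted p = 0.0305). That of Prkag3 was -0.23 (adjusted p = 0.108) and that of Prkag1 was 0.17 (adjusted p = 0.0903), and neither passed. With a slow-fibre score in its place the values were -0.31 (adjusted p = 0.0400), -0.24 (adjusted p = 0.147) and 0.16 (adjusted p = 0.107).

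For genotype, the Prkab2 log2 change was 0.31 with the fast-fibre score (limma adjusted p = 0.0225) and 0.29 with the slow-fibre score (adjusted p = 0.0469). Between AM and IM mice the slow-fibre score gave -0.42 for Prkab2 (adjusted p = 0.0667) and -0.39 for Prkag3 (adjusted p = 0.119), while the fast-fibre score gave -0.51 for both (adjusted p = 0.00746 and 0.00906). For Prkab1 between IM and IW mice the values were 0.61 (adjusted p = 0.0505) with the slow-fibre and 0.58 (adjusted p = 0.0206) with the fast-fibre score. The part of fibre-type composition, and of the endothelial markers that were higher in active mice, in these results was not tested.

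**Figure D4:**
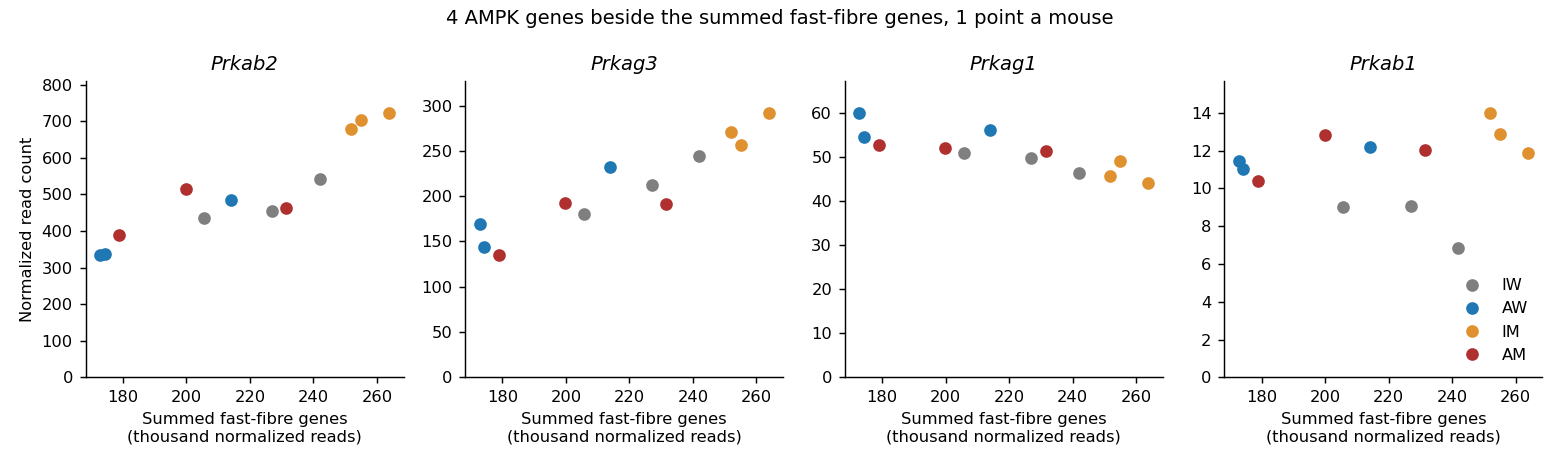
Normalized read counts of Prkab2, Prkag3, Prkag1 and Prkab1 (vertical axes, from 0) beside the summed normalized reads of 12 fast-fibre genes (horizontal axis), with 1 point for each of the 12 mice coloured by group. Prkab2 and Prkag3 were highest in the 3 IM mice, which had the highest fast-fibre sums, while Prkag1 overlapped between IM and IW mice, and the 3 IW mice were lowest for Prkab1.

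The pattern of each member but Prkag2 over the 12 mice was then set against 2555 or 2556 other genes with a mean of at least 50, by Pearson's r of log2 values. These values are descriptions, since all points share the same libraries and scaling. Nearest to Prkaa2 were Rabep1 (r = 0.984), Cacna2d1 (0.974) and Mef2a (0.974), and nearest to Prkab2 were Aff1 (0.981), Tmem233 (0.971) and Limd1 (0.964). For Prkag3 they were Cul3 (0.968), Itfg1 (0.966) and H6pd (0.962). Prkag1 had another set, Prdx3 (0.957), Uqcrh (0.953) and Mrpl30 (0.946), which encode a mitochondrial peroxiredoxin, a respiratory complex III subunit and a mitochondrial ribosomal protein. Stk11 was nearest to Itga7 (0.942), Fxyd1 (0.918) and Gnas (0.878). The low messages had weaker neighbours, Canx (0.868), Bzw2 (0.850) and Dnm1l (0.850) for Prkaa1, and Prmt1 (0.820), Prdx1 (0.818) and Malat1 (0.789) for Prkab1.

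The rest of the pathway was described from lists. Of 9 tested genes that encode partners of LKB1, other AMPK kinases, phosphatases and folliculin partners, none was called with activity in limma, beside 14.5% of all genes. An unadjusted limma p under 0.05 with activity was found for 3 of them, beside 2192 of 7247 genes. With genotype 1 of the 9 was called, beside 5.78%. This was Cab39, whose protein MO25 stabilizes the active LKB1 complex, at a log2 change of -0.20 (limma adjusted p = 0.0195). Cab39 lies on chromosome 1 (87690016 to 87748151), as does the floxed gene Mstn (53118507 to 53124923), and whether this bears on the call was not tested. The list's median log2 change was -0.10 with activity and -0.01 with genotype, beside -0.02 and -0.005 for all genes. Of 8 tested AMPK-related kinases, which LKB1 also activates, none was called with activity (1 had an unadjusted limma p under 0.05, beside 2192 of 7247 genes). Beside the same shares of all genes (14.5% and 5.78%), 2 were called with genotype, as Mark4 (0.41, adjusted p = 0.0173) and Sik3 (0.30, adjusted p = 0.0383) were over-expressed in myostatin-reduced mice. Their median was -0.08 with activity and 0.10 with genotype.

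Among 18 tested genes of AMPK substrates, 7 had an unadjusted limma p under 0.05 with activity, beside 2192 of 7247 genes. Of the 18, 3 were called with activity and 3 with genotype (beside 14.5% and 5.78% of all genes), with medians of -0.04 and 0.01. Tbc1d1, a regulator of glucose transporter traffic that AMPK phosphorylates in muscle, was called in both. It had 145.5, 125.6 and 119.5 normalized reads among IW mice, 89.2, 71.3 and 79.4 among AW, 64.0, 62.7 and 83.5 among IM and 69.2, 67.3 and 63.5 among AM mice. Its log2 change was -0.38 with activity (limma adjusted p = 0.0109), -0.57 with genotype (adjusted p = 0.00263) and -0.89 between IM and IW mice (adjusted p = 0.00283, where 2.51% of all genes were called). With activity, Pfkfb2, an enzyme that controls glycolysis, was higher (0.51, adjusted p = 0.0303) and Eef2k, a kinase that slows translation elongation, was lower (-0.34, adjusted p = 0.0314). With genotype, Acacb, the muscle acetyl-CoA carboxylase that restrains fatty acid oxidation (0.17, adjusted p = 0.0300), and Tsc2, an inhibitor of growth signalling (0.23, adjusted p = 0.0434), were higher.

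Of 10 genes known to be induced with AMPK activation in muscle, 9 had a positive log2 change with activity, beside 44.5% of all genes tested. An unadjusted limma p under 0.05 was found for 5 of the 10, beside 2192 of 7247 genes, and 1 was called, beside 14.5%. Lpl, which encodes lipoprotein lipase, had a log2 change of 0.89 (limma adjusted p = 0.0164) and of 1.13 between AM and IM mice (adjusted p = 0.0394). The list's median was 0.12 with activity and -0.18 with genotype. Vegfa, the vascular growth factor gene, was under-expressed in myostatin-reduced mice (-0.38, limma adjusted p = 0.0382), with -0.57 between IM and IW mice (adjusted p = 0.0458) and 0.47 between AM and IM mice (adjusted p = 0.0496). Slc2a4, Hk2, Cpt1b and Ppargc1a, which encode the muscle glucose transporter, hexokinase, the mitochondrial fatty acid importer and a coactivator of mitochondrial genes, were not called. Their log2 changes with activity were 0.12 (limma adjusted p = 0.0652), 0.12 (0.126), 0.09 (0.609) and 0.16 (0.276), so that Slc2a4 was nearest to the threshold. Ucp3, which encodes a mitochondrial uncoupling protein, was the gene of the list with a negative value, at -0.22 (95% interval -0.70 to 0.27, limma adjusted p = 0.547).

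**Figure D5:**
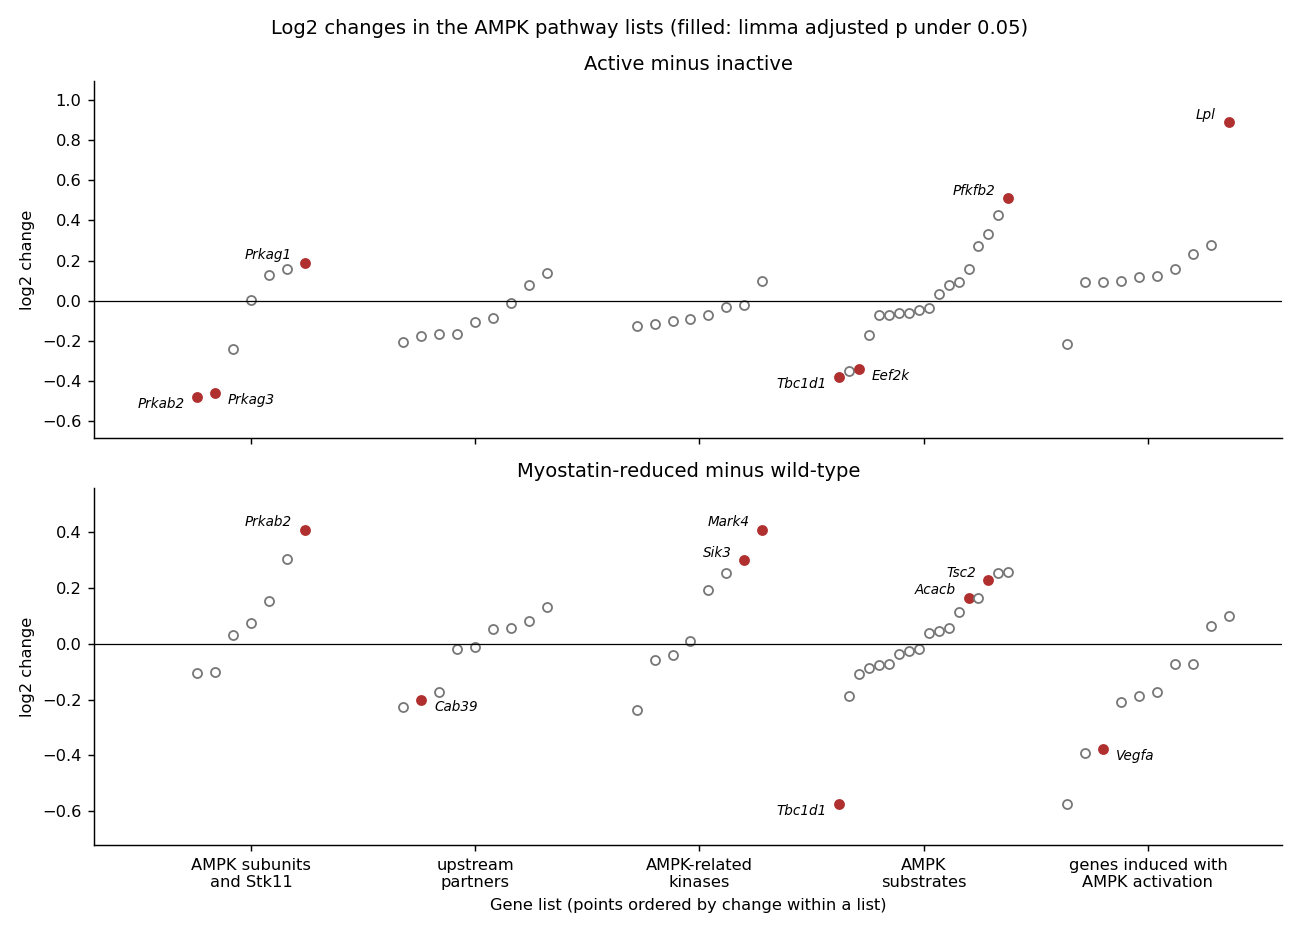
Log2 changes (vertical axis) with activity (top) and genotype (bottom) of the tested genes of the AMPK subunits with Stk11 and of 4 lists of the pathway, with 1 point for each gene in order of change. Filled, named points passed a limma adjusted p under 0.05, which were 3 of 7 members with activity and 1 with genotype.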

How the data were processed

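Polyadenylated RNA of each triceps was prepared with a TruSeq kit and sequenced by the authors as single-end 65-base reads, which CASAVA (version not given in the sources used here) mapped to mm9, with reads counted in RefSeq exons. The values deposited are a signal per gene, namely read counts that the authors scaled to equal trimmed means of the non-mitochondrial genes and not divided by gene length. The 13 mitochondrial genes were counted apart. Most but not all values were whole multiples of 1 read within 0.006 (88.8% to 91.2% of values under 5 and 68.4% to 70.7% of values from 20 to 50). Whole reads were thus not recovered for every gene, and no count model was used. The step of 1 read, 0.07703 to 0.10541, gave the estimated depths. Estimated reads and counting errors cover counting only, since amplified reads are not independent molecules.

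Values were tested as log2(value + 1) with limma 3.58.1 in R 4.3.3 (a mean for each group, 12 mice, eBayes with trend, two-sided, Benjamini-Hochberg adjustment over 7247 genes with a mean of at least 10). Fold changes of low genes are understated on this scale. Prkag2 was tested by exact permutation within each level of the other factor. Groups and mouse numbers came from the sample titles. Same-number correlations of deviations from group means ran from -0.61 to 0.48 over all groups (9 of 18 over 0.1), so the numbers were not taken to pair mice, but between IM and AM mice all 3 were over 0.1 (0.17 to 0.32). The procedure was tested on simulated data. Exon lengths and positions came from GENCODE vM1 (NCBIM37), and promoter windows from RefSeq. The members, lists and tests were chosen with earlier results of these data known. Genes were named by rule, which took all 8 members, Mstn, every pathway gene called for activity, genotype or a single contrast, and for each tested member the 3 genes most like it; 5 uncalled genes of the induced list, Fabp4, Adipoq, Plin1, Cidec and Myh1 were added after their values were seen, and Dos for its overlap with Stk11. Of the lists, Camkk1, Nuak2, Brsk1, Brsk2, Retn and Cd68 were not analysed here, and Camkk2, Fnip2, Mark1 and Foxo3 were under the filter, and 1 listed gene is not reported here.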

Additional observations from a re-analysis of the deposited data

How the results depend on the processing

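Member calls were recomputed under 12 further settings and with each mouse removed in turn. The activity comparison had 3 called members, 1 with either the slow-fibre or the fast-fibre score as covariate, 4 with sample weights, which added Prkaa2, and 1 to 4 with a mouse removed. Genotype had 1, which became 2 without trend or with sample weights, and 0 to 2 with a mouse removed. Activity in wild-type mice had 0, which became 2 with sample weights (Prkab1 and Prkab2), and 0 to 1 with a mouse removed (Prkab2 without AW mouse 1). Activity in myostatin-reduced mice had 2, which became 0 with the slow-fibre score, 3 with sample weights or a replicate block (both added Prkaa2) and 3 with equal sums, which added Prkag1 (0.29, limma adjusted p = 0.0328), and 0 to 3 with a mouse removed. Genotype in inactive mice had 1, which became 0 with the slow-fibre score and 2 with sample weights or the fast-fibre score (both added Prkab2, which also passed with a mean of at least 50, limma adjusted p = 0.0446), and 0 to 2 with a mouse removed. The cause of these shifts was not tested. In the interaction and in genotype among active mice no member was called under any of the settings run.

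The log2 change kept its sign in every setting for Prkab2, Prkag3 and Prkag1 with activity, for Prkab2 with genotype, for Prkab2 and Prkag3 between AM and IM mice, and for Prkab1 between IM and IW mice. Some uncalled changes turned sign. With equal sums of non-mitochondrial genes these were Prkaa1 with genotype (-0.028), Prkaa2 (0.0039) and Stk11 (0.021) between AW and IW mice, and Prkab1 between AM and AW mice (-0.022, and -0.0020 with the fast-fibre score). Prkag3 turned to -0.0060 with genotype under the slow-fibre score, to 0.054 between AW and IW mice under the fast-fibre score, and to 0.030 between AM and AW mice under sample weights. With a mouse removed, Stk11 was at -0.023 to 0.040 with activity and -0.11 to 0.0034 between AW and IW mice. With genotype, Prkaa1 was at -0.031 to 0.082 and Prkaa2 at -0.016 to 0.12. The interaction of Prkag1 was -0.073 to 0.0031. Prkaa1 was at -0.015 to 0.092 between AM and IM mice and -0.020 to 0.21 between IM and IW mice. Between AM and AW mice the ranges were -0.11 to 0.015 (Prkaa1), -0.26 to 0.019 (Prkaa2), -0.041 to 0.10 (Prkab1), -0.22 to 0.13 (Prkag3) and -0.084 to 0.047 (Stk11).

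Equal sums moved the median log2 change of all genes with activity from -0.02 to 0.08, and higher calls from 579 of 1051 to 1401 of 1545. With genotype the median moved from -0.01 to -0.07 and higher calls from 259 of 419 to 177 of 619. Activity changes were then -0.37 for Prkab2, -0.35 for Prkag3 and 0.30 for Prkag1, all called. With a mouse removed, all genes called numbered 552 to 1485 with activity (1051 with all mice), 180 to 579 with genotype (419), 85 to 1098 between AM and IM mice (568), 23 to 216 between IM and IW mice (182), 0 to 198 between AW and IW mice (2), 4 to 15 between AM and AW mice (15) and 0 to 1 in the interaction (0), so the background shares move with single mice. With sample weights all genes called rose to 1740 with activity, 608 with genotype, 415 between AW and IW, 931 between AM and IM and 334 between IM and IW mice, so members gained there stand beside a larger background. Genes called with activity numbered 401 with the slow-fibre and 426 with the fast-fibre score. Mean shares of Prkaa2, Prkab2 and Prkag3 were 92.7%, 96.3% and 66.9% per exon length and 95.6%, 97.7% and 77.3% without division by length, and Prkab2 was 94.8% with the length of the longest transcript. A replicate block left 3 members called with activity and 1 with genotype, and between AM and IM mice it added Prkaa2 (-0.40, limma adjusted p = 0.0468) to Prkab2 and Prkag3. Depth limited Prkab1 and Prkag2, where counting error alone reached 11.6% and 13.2%.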
